A study of Mus musculus with 9 samples.

Results

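Transcripts of 10 elastic fibre proteins were measured in cultured mouse beige adipocytes from 2 strains and their F1 hybrid. The genes were chosen by symbol, as a family, though with earlier results of these data known: Eln, Fbn1, Fbn2, Fbln1, Fbln2, Fbln5, Efemp1, Efemp2, Mfap4 and Mfap5. All 10 had a row among the 24013 gene symbols of the deposited values, and all 10 passed the filter on low values. The groups were F1 offspring of the 2 strains, 129X1/SvJ (129) and C57BL/6J (B6), with 3 libraries each and 9 in all. The series describes B6 as prone and 129 as resistant to obesity, and its title asks about genetic variation and adipocyte browning. Cells of the inguinal stromal vascular fraction, a mixed population of a subcutaneous fat depot, were grown to confluence. They were induced for 48 hours with the PPARG agonist rosiglitazone at 1 µM, the thyroid hormone T3 at 1 nM, insulin at 850 nM, the glucocorticoid dexamethasone at 1 µM, indomethacin at 125 nM and isobutylmethylxanthine at 0.5 mM, in 10% serum. Rosiglitazone, T3, insulin and serum were kept on afterwards, and RNA was taken at day 7 in every group alike. The labels give no parental direction for the F1, no animal age or sex, and no statement that replicate libraries came from separate animals or cultures, and the p-values below therefore cover the spread among these 9 libraries, which may be technical.

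Elastic fibres give tissues recoil. Cells secrete tropoelastin, the product of Eln, which is deposited on a scaffold of fibrillin microfibrils and cross-linked by lysyl oxidases. Fibulins and microfibril-associated proteins bind both parts and guide the assembly, and the fibrillin scaffold also stores latent TGF-beta. In fat, adipocyte precursors and other stromal cells are known as main producers of matrix, and mature adipocytes sit in a network of it.

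The main pattern was a lower level of most of these transcripts in F1 cells. Against B6, 7 of the 10 genes fell and 1 rose, and against 129, 7 fell and none rose. Set against mid-parent, the average of both parental means on the log2 scale, 8 of 10 fell. Between the parents the family split, with Eln, Fbn2, Fbln1 and Mfap5 higher in 129 and Fbln2, Fbln5 and Efemp1 lower. Summed over the 10 genes, RPKM (reads per kilobase of exon per 1000000 assigned reads) was 629, 698 and 625 in F1, 853, 851 and 821 in 129, and 870, 899 and 793 in B6. Every F1 library was thus below every parental library, while the sums of the 2 parents overlapped. The family took 0.243% to 0.288% of assigned reads in F1, 0.332% to 0.350% in 129 and 0.310% to 0.361% in B6.

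These counts stand against a background in which many genes differed. Of 11542 genes tested with limma on log2(RPKM + 1), 37.5% passed an adjusted p of 0.05 in 129 against B6, with 15.9% higher and 21.7% lower. The share was 31.2% in F1 against B6, with 11.0% higher and 20.2% lower. In F1 against 129 it was 27.7%, with 15.7% lower, and against the mid-parent value 23.2%, with 14.8% lower. The median log2 difference over the family was 0.13 in 129 against B6, beside -0.03 over all genes tested. It was -0.43 in F1 against B6 beside -0.04, -0.37 in F1 against 129 beside -0.01, and -0.34 against mid-parent beside -0.03. No member passed as higher in F1 against 129 by limma-trend or voom, and none had an unadjusted p under 0.05 in that direction in either. In 3 of the 10 genes, Eln, Fbln1 and Efemp1, all F1 libraries lay below all 6 parental ones, as did 9.70% of all genes tested. All 3 F1 contrasts use the same F1 libraries, and each parent enters more than 1 contrast, so the counts are not independent of each other.

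**Figure D1:**
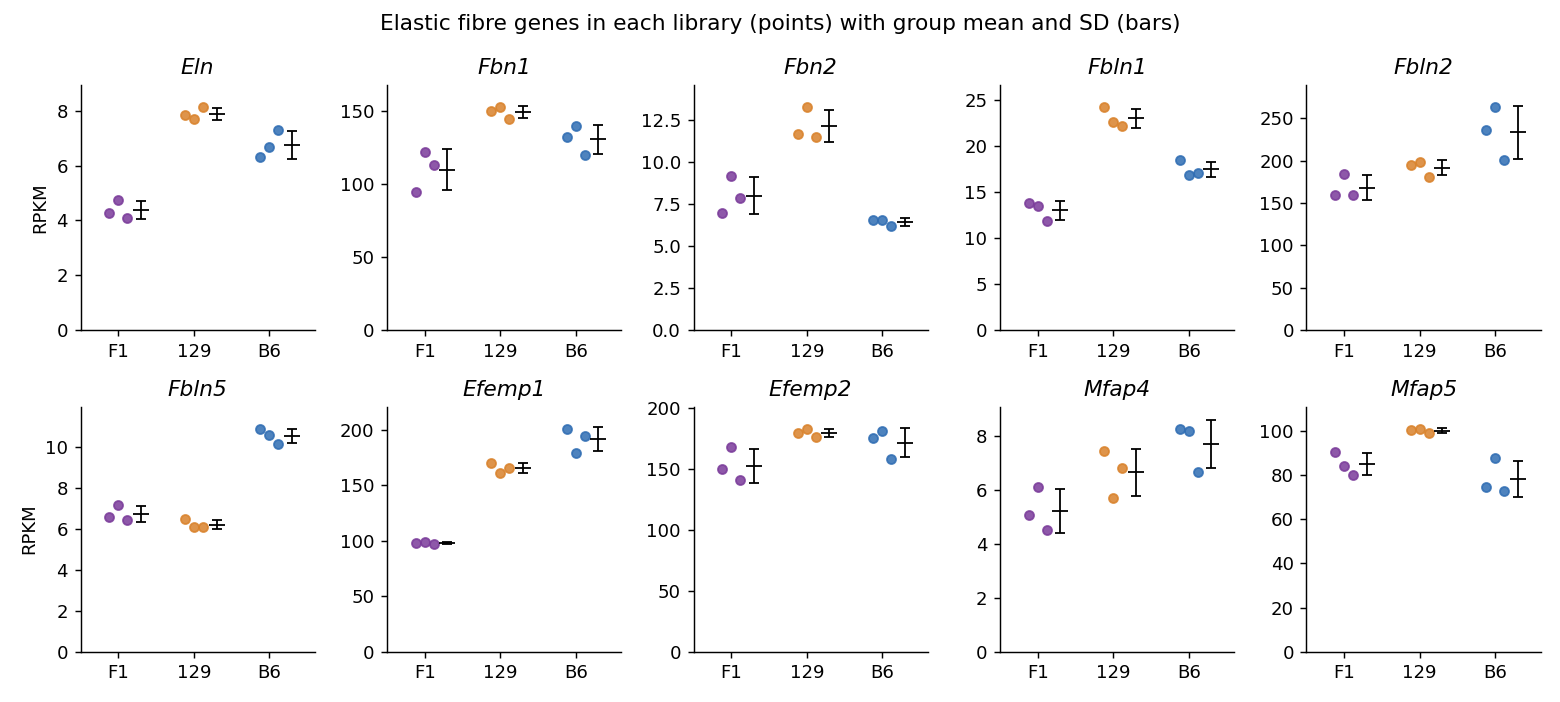
RPKM (vertical axes, each starting at 0) of the 10 elastic fibre genes in the libraries of F1, 129 and B6 (horizontal axes); each point is 1 library and bars give the mean and SD of 3. Eln, Fbln1 and Efemp1 have all F1 points below all parental points, Fbn2 is highest in 129, and Fbln5 is highest in B6.

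**Figure D2:**
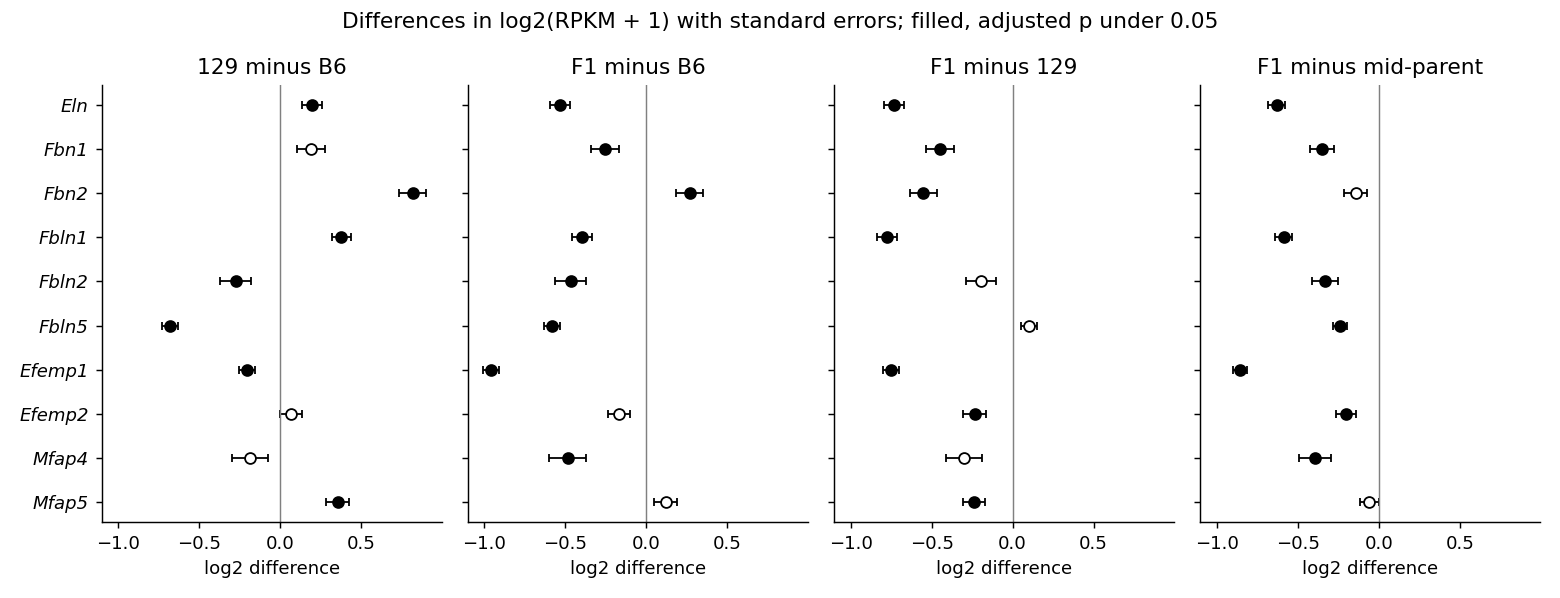
Differences in log2(RPKM + 1) for 129 against B6 and for F1 against each parent and against mid-parent (horizontal axes; the group named first minus the other), with 1 row per gene, bars for standard errors and filled points for an adjusted p under 0.05. The points of 129 against B6 lie on both sides of 0, from -0.68 for Fbln5 to 0.82 for Fbn2, and the called points of F1 against mid-parent all lie below 0, down to -0.86 for Efemp1.

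The depth was 39686986 to 53410947 assigned reads in F1, 23710908 to 28473083 in 129 and 19130022 to 26931438 in B6, so all F1 libraries were deeper. Read counts per gene ranged from 237 for Mfap4 in B6 replicate 2 to 64512 for Fbn1 in F1 replicate 2, and no member was at the detection floor. With 3 libraries against 3, an exact two-sided permutation test of 1 gene cannot give a p under 0.1, and it gave 0.1 wherever 2 groups are said below not to overlap. These are bulk libraries, in which fewer cells of a type and less RNA per cell cannot be told apart.

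On the RPKM scale, which corrects for exon length, the family had 2 tiers in every group. Fbln2, Efemp2, Efemp1, Fbn1 and Mfap5 had group means of 78.4 to 233 RPKM, and Fbln1, Fbn2, Fbln5, Mfap4 and Eln had means of 4.37 to 23.0 RPKM. Fbln2 led in all 3 groups and made up 25.8% of the family's summed RPKM in F1, 22.8% in 129 and 27.2% in B6. The library ranges of Fbln2 and Efemp2 overlapped in F1 and 129, and those of Efemp1 and Efemp2 overlapped in B6. Eln, the gene of the elastic core, was the lowest in F1, rank 8 of 10 in 129 and rank 9 of 10 in B6. It made up 0.671% of the family sum in F1, 0.938% in 129 and 0.796% in B6. The levels of Eln and Mfap4 overlapped in F1 and in B6, as did those of Eln and Fbn2 in B6.

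Eln encodes tropoelastin, the soluble monomer of elastin (mm9 chromosome 5, 135178466 to 135223124, minus strand, 37 exon intervals in the deposited annotation). Its RPKM was 4.29, 4.73 and 4.09 in F1 replicates 1 to 3, 7.85, 7.70 and 8.13 in 129, and 6.30, 6.66 and 7.32 in B6. All 3 groups were separate, in the order F1, B6, 129. The F1 mean was 0.646 of the B6 mean (log2 difference -0.53, SE 0.06, adjusted p = 1.23e-04) and 0.553 of the 129 mean (-0.73, SE 0.06, adjusted p = 1.75e-05). Relative to mid-parent it fell by 0.63 on the log2 scale (SE 0.05, adjusted p = 5.02e-05). The 129 mean was 1.17 times the B6 mean (0.20, SE 0.06, adjusted p = 0.0261). That small parental difference missed the threshold without B6 replicate 1 or 2 or without 129 replicate 1 or 3 (log2 difference 0.16 to 0.20, adjusted p = 0.0559 to 0.103; over all 15 alternatives 0.0119 to 0.103).

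The fibrillins form the microfibril scaffold. Fbn1 encodes fibrillin-1, the main fibrillin of adult microfibrils, whose cleaved C-terminal end is the fasting hormone asprosin, known from adipose tissue (mm9 chromosome 2, 125126330 to 125332174, minus strand). Its RPKM was 94.4, 122 and 113 in F1, 150, 153 and 145 in 129, and 132, 140 and 120 in B6. F1 was below 129 without overlap and overlapped with B6, and 129 was above B6 without overlap. Fbn1 fell in F1 relative to 129 (0.736 of its mean, log2 difference -0.45, SE 0.09, adjusted p = 0.00355) and relative to mid-parent (-0.35, SE 0.07, adjusted p = 0.00755). Its difference from B6 was -0.25 (SE 0.09, adjusted p = 0.0474) and missed the threshold in 9 of 15 alternatives, among them those without F1 replicate 1 (-0.15) or 3, without B6 replicate 1 or 2 and without any 1 of the 129 libraries (adjusted p = 0.0619 to 0.129 over these; 0.0185 to 0.129 over all 15). In 129 against B6 the difference of 0.19 (SE 0.09) did not pass (adjusted p = 0.106), and passed only without F1 replicate 1, which changes the shared spread (adjusted p = 0.029).

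Fbn2 encodes fibrillin-2, best known from microfibrils of developing tissue (mm9 chromosome 18, 58168277 to 58369580, minus strand). Its RPKM was 6.93, 9.16 and 7.87 in F1, 11.7, 13.3 and 11.5 in 129, and 6.56, 6.55 and 6.18 in B6. The 3 groups did not overlap, with 129 highest and B6 lowest. The 129 mean was 1.89 times that of B6, the largest parental rise of the family (log2 difference 0.82, SE 0.08, adjusted p = 2.65e-05). F1 was 0.658 of 129 (-0.55, SE 0.08, adjusted p = 8.7e-04) and did not pass against mid-parent (-0.14, SE 0.07, adjusted p = 0.187), except without F1 replicate 2 (-0.23, adjusted p = 0.0363). It was the only member to pass as higher in F1 than in B6 (1.24 times, 0.27, SE 0.08, adjusted p = 0.0339). That call was lost in 6 of 15 alternatives, including those without F1 replicate 2 (0.18) or 3 and without any 1 of the B6 libraries (adjusted p = 0.0508 to 0.109 over these; 0.00837 to 0.109 over all 15).

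The fibulins bridge elastin, fibrillin and basement membranes. Fbln1 encodes fibulin-1, a component of elastic fibres and basement membranes (mm9 chromosome 15, 85036438 to 85116724, plus strand). Its RPKM was 13.8, 13.5 and 11.8 in F1, 24.2, 22.6 and 22.2 in 129, and 18.4, 16.9 and 17.1 in B6. The groups were separate, with F1 lowest and 129 highest, as for Eln. The log2 difference was 0.38 in 129 against B6 (SE 0.06, adjusted p = 6.31e-04), -0.40 in F1 against B6 (SE 0.06, adjusted p = 7.68e-04) and -0.78 in F1 against 129 (SE 0.06, adjusted p = 1.14e-05). Against mid-parent it was -0.59 (SE 0.05, adjusted p = 7.02e-05). All 4 calls held in the 15 alternatives.

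Fbln2 encodes fibulin-2, which binds elastin-associated microfibrils and basement membrane proteins (mm9 chromosome 6, 91162758 to 91222534, plus strand). Its RPKM was 160, 185 and 159 in F1, 195, 198 and 181 in 129, and 236, 263 and 201 in B6. B6 was above both other groups, and F1 and 129 overlapped. F1 fell relative to B6 (0.719 of its mean, log2 difference -0.47, SE 0.09, adjusted p = 0.00366). It also fell relative to mid-parent (-0.33, SE 0.08, adjusted p = 0.015), a call lost without F1 replicate 1 (adjusted p = 0.0673) or 3 (0.0688), in a range of 0.00298 to 0.0688 over the alternatives. Fbln2 was 0.821 of B6 in 129 (-0.28, SE 0.09, adjusted p = 0.0399), and 7 of 15 alternatives put that outside the threshold, among them leaving out B6 replicate 1 or 2 or any 129 library (-0.18 to -0.30, adjusted p = 0.0647 to 0.124 over these, 0.00512 to 0.124 over all 15). F1 against 129 did not pass (-0.19, SE 0.09, adjusted p = 0.159).

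Fbln5 encodes fibulin-5, which binds tropoelastin and cell-surface integrins and is required for elastic fibre assembly in mice (mm9 chromosome 12, 102984775 to 103057329, minus strand). Its RPKM was 6.58, 7.17 and 6.46 in F1, 6.48, 6.08 and 6.08 in 129, and 10.9, 10.6 and 10.2 in B6. B6 stood above both other groups, which overlapped with each other. The 129 mean was 0.589 of B6 (log2 difference -0.68, SE 0.05, adjusted p = 2.24e-06), the largest parental fall of the family. The F1 mean was 0.638 of B6 (-0.58, SE 0.05, adjusted p = 1.99e-05) and did not pass against 129 (0.10, SE 0.05, adjusted p = 0.17). Against mid-parent Fbln5 fell by 0.24 on the log2 scale (SE 0.04, adjusted p = 0.00325).

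Efemp1 encodes fibulin-3, an extracellular protein of connective tissue and fascia (mm9 chromosome 11, 28753205 to 28826743, plus strand). Its RPKM was 97.9, 99.0 and 96.6 in F1, 170, 161 and 165 in 129, and 201, 179 and 194 in B6. The groups were separate, and F1 was far below both parents. F1 was 0.511 of B6 (log2 difference -0.96, SE 0.05, adjusted p = 5.39e-07) and 0.591 of 129 (-0.75, SE 0.05, adjusted p = 3.04e-06). The difference from mid-parent was -0.86 (SE 0.04, adjusted p = 2.47e-06), the largest of the family. The 129 mean was 0.865 of B6 (-0.21, SE 0.05, adjusted p = 0.00676). Only 3.08% of all genes tested had a wider range of group means on the log2 scale than Efemp1.

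Efemp2 encodes fibulin-4, which is needed in mice for elastic fibre formation and binds lysyl oxidase (mm9 chromosome 19, 5474690 to 5481854, plus strand). Its RPKM was 150, 168 and 140 in F1, 179, 183 and 176 in 129, and 176, 181 and 158 in B6. It varied least over the 3 groups, and F1 was separate from 129 but overlapped with B6. Efemp2 was 0.851 of 129 in F1 (log2 difference -0.23, SE 0.07, adjusted p = 0.0295) and 0.20 lower than mid-parent on the log2 scale (-0.20, SE 0.06, adjusted p = 0.0357). The first call was lost in 6 of 15 alternatives and the second in 8, so both lie close to the threshold. The losses included leaving out F1 replicate 1 or 3 or any 1 of the 129 libraries for both, and B6 replicate 1 for the second (adjusted p = 0.0549 to 0.152 over these; over all 15 it was 0.00872 to 0.105 for the first and 0.0123 to 0.152 for the second). Neither F1 against B6 (-0.17, adjusted p = 0.093) nor 129 against B6 (0.07, adjusted p = 0.482) passed. The first passed without B6 replicate 3 (-0.23, adjusted p = 0.0409) or F1 replicate 2 (-0.24, adjusted p = 0.0246).

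Promoter sequence is shown for the 3 genes with the widest range of group means among the 6 members that RefSeq promoter tables (GRCm38.p6) listed, to set the letters beside levels that moved differently. Efemp1 was far below both parents in F1 and a little lower in 129 than in B6, Fbln1 was low in F1 and high in 129, and Fbln5 was high in B6. Fbln1 and Fbln5 had 2 windows each, and the one with more GC boxes is shown. Each window runs from 250 bases before to 50 after a transcript start, 5′ to 3′ on the gene's strand. Capitals mark matches on either strand to the GC box (GGGCGG), the AP-1 site (TGANTCA), the SMAD half-site (CAGACA), the TATA box (TATAAA) or the NFI half-site (TTGGCA), and overlapping matches run together.
Efemp1, chr11:28852955-28853254, plus strand: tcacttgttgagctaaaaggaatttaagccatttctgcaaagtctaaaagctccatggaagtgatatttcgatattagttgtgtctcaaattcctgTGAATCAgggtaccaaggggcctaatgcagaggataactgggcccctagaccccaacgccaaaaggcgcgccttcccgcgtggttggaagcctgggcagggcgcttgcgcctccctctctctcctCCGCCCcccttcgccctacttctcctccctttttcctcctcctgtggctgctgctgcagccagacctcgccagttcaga
Fbln1, chr15:85205758-85206057, plus strand: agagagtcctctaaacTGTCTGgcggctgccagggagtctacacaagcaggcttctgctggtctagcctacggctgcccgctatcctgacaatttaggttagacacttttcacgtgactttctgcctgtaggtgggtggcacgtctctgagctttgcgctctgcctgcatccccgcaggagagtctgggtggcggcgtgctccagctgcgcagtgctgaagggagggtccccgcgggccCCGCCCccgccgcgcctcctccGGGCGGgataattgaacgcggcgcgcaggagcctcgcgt
Fbln5, chr12:101819070-101819369, minus strand: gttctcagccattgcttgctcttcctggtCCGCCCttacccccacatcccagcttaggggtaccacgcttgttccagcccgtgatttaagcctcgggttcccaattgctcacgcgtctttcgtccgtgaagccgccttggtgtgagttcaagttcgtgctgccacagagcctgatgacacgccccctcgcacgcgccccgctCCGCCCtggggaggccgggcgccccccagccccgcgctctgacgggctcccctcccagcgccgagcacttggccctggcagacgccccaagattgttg

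The Efemp1 window held 1 AP-1 match and 1 GC box, the Fbln1 window 2 GC boxes and 1 SMAD half-site, and the Fbln5 window 2 GC boxes. The other Fbln5 window (chr12:101818435-101818734) and the other Fbln1 window (chr15:85205699-85205998) each held 1 SMAD half-site and no GC box. A GC box stood in at least 1 window of all 6 listed members (Efemp1, Efemp2, Fbln1, Fbln2, Fbln5 and Fbn1). Counted by window it was in 8 of their 10, some of which overlap each other, beside 35.7% of all 32851 windows of the same length. GC content was 48.7% to 78.3% in the member windows, beside a median of 52.7% over all windows, and its part in this count was not tested. An AP-1 match was in 1 of the 10 windows, beside 7.81% of all windows, and a SMAD half-site in 3, beside 21.0%. No member window held the NFI half-site, present in 14.1% of all windows, or the TATA box, present in 13.6%. A match is a string of letters in a short window and says nothing of binding.

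Mfap4 encodes a microfibril-associated protein that binds elastin and fibrillin (mm9 chromosome 11, 61298946 to 61302206, plus strand). Its RPKM was 5.08, 6.11 and 4.50 in F1, 7.44, 5.71 and 6.83 in 129, and 8.27, 8.19 and 6.68 in B6. Only F1 and B6 were separate. F1 was 0.678 of B6 (log2 difference -0.49, SE 0.11, adjusted p = 0.00818) and fell by 0.39 relative to mid-parent (SE 0.10, adjusted p = 0.0157). The mid-parent call was lost without F1 replicate 1 (adjusted p = 0.0603) or 3 (0.0785), in a range of 0.0085 to 0.0785. F1 against 129 (-0.30, adjusted p = 0.0724) and 129 against B6 (-0.19, adjusted p = 0.22) did not pass. The first passed without 129 replicate 2 (-0.39, adjusted p = 0.038) or F1 replicate 2 (-0.40, adjusted p = 0.0291).

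Mfap5 encodes a microfibril-associated glycoprotein that binds fibrillins (mm9 chromosome 6, 122463694 to 122479305, plus strand). Its RPKM was 90.5, 84.3 and 80.3 in F1, 101, 101 and 99.0 in 129, and 74.6, 87.8 and 72.9 in B6. 129 stood above both other groups, which overlapped. It rose 1.28-fold in 129 against B6 (log2 difference 0.35, SE 0.07, adjusted p = 0.00216). F1 was 0.849 of 129 (-0.24, SE 0.07, adjusted p = 0.0273). That call was lost in 6 of 15 alternatives, among them those without F1 replicate 2 or 3 or any 1 of the 129 libraries (adjusted p = 0.0591 to 0.0976 over these; 0.00395 to 0.0976 over all 15). Mfap5 did not pass against B6 (0.12, adjusted p = 0.217) or mid-parent (-0.06, adjusted p = 0.509), and its F1 mean lay between the parental means. Without B6 replicate 2 the difference from B6 passed (0.20, adjusted p = 0.015).

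Ratios between related members within a library do not depend on how libraries were scaled. Fbn2 stood at 0.0734, 0.0751 and 0.0696 of Fbn1 in F1, 0.0776, 0.0867 and 0.0793 in 129, and 0.0496, 0.0469 and 0.0515 in B6. The fibrillin ratio was therefore higher in every F1 and 129 library than in every B6 library, by 0.56 and 0.72 on the log2 scale (exact two-sided permutation p = 0.1 each). Efemp1 stood at 0.654, 0.590 and 0.688 of Efemp2 in F1, 0.950, 0.880 and 0.940 in 129, and 1.14, 0.992 and 1.23 in B6. This ratio of fibulin-3 to fibulin-4 was thus separate in all 3 groups, and the F1 log2 ratio was 0.80 below B6 (-0.80) and 0.52 below 129 (-0.52; exact two-sided permutation p = 0.1 each).

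Fbln1 stood at 0.0862, 0.0729 and 0.0744 of Fbln2 in F1, 0.124, 0.114 and 0.122 in 129, and 0.0780, 0.0641 and 0.0850 in B6. Only 129 was separate, by 0.67 above B6 and with F1 at -0.63 against it on the log2 scale (exact two-sided permutation p = 0.1 each), and F1 overlapped with B6 (0.05, p = 0.9 in the exact test). Eln stood at 0.0362 to 0.0454 of Fbn1 in F1, 0.0504 to 0.0561 in 129 and 0.0476 to 0.0610 in B6. Relative to the main fibrillin, Eln was thus lower in every F1 library, by -0.37 against B6 and -0.41 against 129 (exact two-sided permutation p = 0.1 each), while the parents overlapped (0.03, exact p = 0.8). Mfap5 stood at 13.8 to 17.9 times Mfap4 in F1, 13.5 to 17.7 times in 129 and 9.03 to 10.9 times in B6, so B6 was separate (0.68 and 0.57 on the log2 scale for F1 and 129 against it, exact p = 0.1 each) and F1 and 129 overlapped (0.11, exact p = 0.5).

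**Figure D3:**
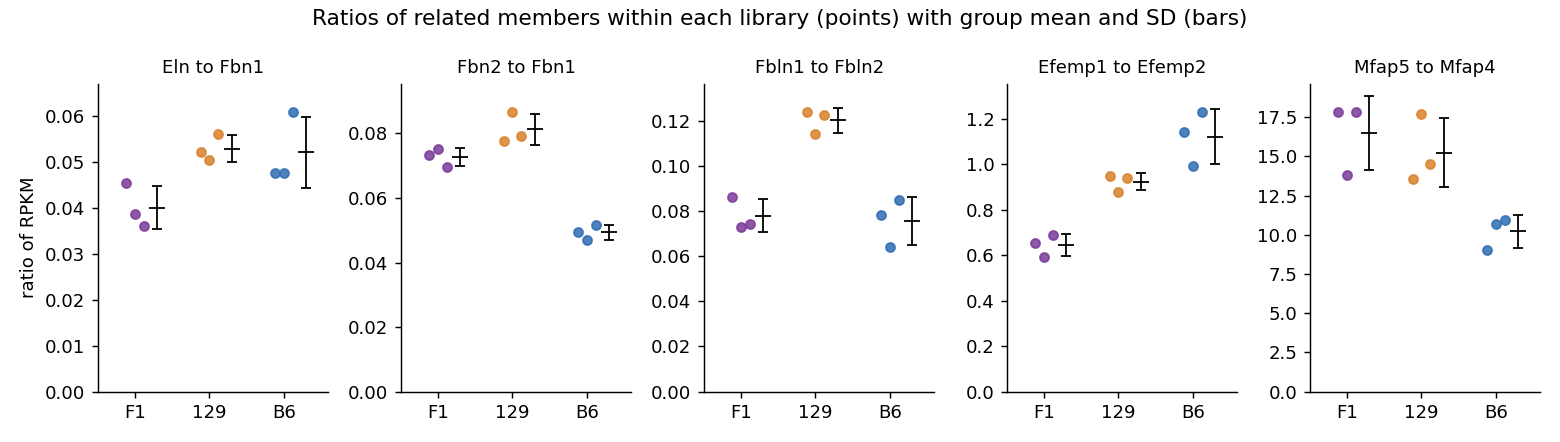
Ratios of RPKM between related members within each library (vertical axes, each starting at 0) in F1, 129 and B6 (horizontal axes); points are libraries and bars give the mean and SD of 3. Eln to Fbn1 and Efemp1 to Efemp2 are lowest in F1, Fbn2 to Fbn1 and Mfap5 to Mfap4 are lowest in B6, and Fbln1 to Fbln2 is highest in 129.

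Enzymes and listed partners of the same fibres were examined as gene lists. Of 6 cross-linking genes tested, none passed against mid-parent by limma-trend, where 23.2% of all genes did. Unadjusted p was under 0.05 for 2, Lox as higher and Loxl3 as lower, and voom called 1, Lox as higher. Lox, lysyl oxidase, which cross-links elastin and collagen, had 511 ± 19.4 RPKM in F1, 461 ± 20.2 in 129 and 428 ± 59.4 in B6 (SD, n = 3 each), and its F1 difference from mid-parent was 0.21 (SE 0.08, adjusted p = 0.074). That value passed in 4 of the alternatives, among them voom (0.20, adjusted p = 0.0459), median-of-ratios rescaling (0.23, adjusted p = 0.0472) and without B6 replicate 2 (0.26, adjusted p = 0.00437). In F1 against B6, 2 of the 6 rose (3 by voom) and 1 fell, beside 11.0% and 20.2% of all genes. Loxl2 (0.46, SE 0.07) and Lox (0.26, SE 0.09, adjusted p = 0.0417) rose, with overlapping libraries for Lox, and Loxl3 fell (-0.24, SE 0.07). Against 129, 1 of the 6 fell in F1, Loxl2 (-0.28, SE 0.07), beside 15.7% of all genes. In 129 against B6, 2 of the 6 rose, where 15.9% of all genes did. They were Loxl2 (1.68-fold, log2 difference 0.74, SE 0.07) and Loxl1 (1.12-fold, 0.16, SE 0.05, adjusted p = 0.0414). The Loxl1 call was lost in 7 alternatives, among them those without B6 replicate 1 or 2, 129 replicate 2 or 3 or F1 replicate 2 (adjusted p up to 0.144). Loxl3 (-0.19, adjusted p = 0.053) and Lox (0.11, adjusted p = 0.332) did not pass there, though Loxl3 passed in 4 of the alternatives, among them voom (-0.20, adjusted p = 0.044), the filter of RPKM 5 (adjusted p = 0.0452) and without B6 replicate 3 (-0.26, adjusted p = 0.0113), and Lox passed without B6 replicate 2 (0.22, adjusted p = 0.0167).

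Latent TGF-beta binding proteins, which resemble fibrillins and anchor TGF-beta to microfibrils, differed one by one. Of 4 tested, 1 rose and 1 fell in 129 against B6, beside 15.9% and 21.7% of all genes. Ltbp4 rose (3.75 ± 0.297 RPKM, beside 1.89 ± 0.166 in B6, log2 difference 0.71, SE 0.06). Ltbp2 fell (6.03 ± 0.495 beside 9.66 ± 2.40, -0.58, SE 0.14, SD over n = 3 each). Ltbp3 (0.10, adjusted p = 0.218) and Ltbp1 (0.03, adjusted p = 0.746) did not pass, and Ltbp3 passed without B6 replicate 2 (0.15, adjusted p = 0.0467). Against mid-parent limma-trend called 1 of the 4 lower, Ltbp4 (-0.28, SE 0.06), beside 14.8% of all genes, and voom called 2 of the 4. Ltbp2 was at -0.35 (SE 0.12, adjusted p = 0.0568) by limma-trend.

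Among other genes listed with microfibrils and elastic fibres, 12 of the 18 with a row were tested. The list includes Mfap3 and Mfap1a, whose place in elastic fibres was not examined. Against mid-parent 7 of the 12 fell in F1, where 14.8% of all genes did, and 5 did not pass, with a median log2 difference of -0.23 beside -0.03 over all genes. In 129 against B6, 1 rose and 5 fell, beside 15.9% and 21.7% of all genes. The riser was Vtn, vitronectin, an adhesive protein also found on elastic fibres, at 7.96 ± 0.558 RPKM beside 1.42 ± 0.190 (log2 difference 1.89, SE 0.08). The ADAMTS-like genes Adamtsl5 (-0.38, SE 0.05) and Adamtsl4 (-0.34, SE 0.05), relatives of the ADAMTS proteases without catalytic domain, were lower in 129. Mfap3 (-0.22, SE 0.06) and Mfap1a (-0.16, SE 0.05) were also among the 5 fallers. Adamtsl2, counted among the 5, passed the filter on low values only through B6, with 0.531, 0.574 and 0.442 RPKM in 129 beside 1.07, 1.23 and 1.07 in B6, so its difference is no support for the list.

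Of 11 tested genes of fibre turnover and the elastin receptor, 3 rose (2 by voom) and 4 fell in 129 against B6, beside 15.9% and 21.7% of all genes. In F1 against mid-parent 3 rose and 4 fell, beside 8.35% and 14.8%. Mmp2, a gelatinase that also cuts elastin, had 83.2 ± 3.58 RPKM in F1, 134 ± 4.06 in 129 and 114 ± 6.70 in B6 (SD, n = 3 each). It fell against mid-parent (-0.57, SE 0.05) and rose in 129 against B6 (0.23, SE 0.05, adjusted p = 0.0053). Cela1, an elastase-type protease, was at 0.0739 of B6 in 129. Its F1 mean of 16.5 RPKM lay between 1.55 in 129 and 20.9 in B6, and it rose against mid-parent on the log2 scale (1.23, SE 0.08). Glb1, whose splice product is the elastin-binding part of the receptor in human cells, was at 0.601 of B6 in 129, and the cathepsin Ctsl was 1.37 times B6. Of 7 integrin subunits tested, only Itgb1 rose in 129 by limma-trend, beside 15.9% of all genes, and it did not by voom (0.12, adjusted p = 0.0461 and 0.0521). The other 6 did not pass, Itga9 (-0.16), Itgb3 (0.11) and Itga5 (-0.07) among them. The Itgb1 call was lost in 9 alternatives, including those without B6 replicate 1 or 3, 129 replicate 1 or 3 or F1 replicate 2 or 3 (adjusted p up to 0.166), and Itga9 passed without B6 replicate 3 (-0.23). Of 10 TGF-beta genes, 1 rose and 2 fell in 129 against B6, beside 15.9% and 21.7% of all genes. The riser was Tgfbr2, the type II receptor (1.73-fold, 0.78, SE 0.04), and the ligand gene Tgfb3 was among the fallers (-0.29, SE 0.05). Ski did not pass (0.07, adjusted p = 0.184). Against mid-parent 2 of the 10 rose and 3 fell, beside 8.35% and 14.8% of all genes, with Tgfbr2 among the fallers (-0.24, SE 0.03).

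Markers of cell types were read beside the family. Mature adipocyte genes (10 of 10 tested) summed to 37297 to 39630 RPKM in F1, 33363 to 35801 in 129 and 29517 to 33620 in B6, so transcripts of the labelled adipocytes were present in every library. Fabp4, a fatty acid carrier, made up 72.3% to 81.4% of each sum. Chosen after the values were seen, the sum of the other 9 genes was 7371 to 7678 RPKM in F1, 7903 to 8266 in 129 and 7580 to 8766 in B6, so the F1 libraries were highest with Fabp4, and without it lay below 129 and overlapped with B6. Of the 10 genes, 2 rose and none fell in F1 against B6 by limma-trend, beside 11.0% and 20.2% of all genes. By unadjusted p 2 were lower, and by voom 2, and the median log2 difference was -0.09. Beige and brown adipocyte genes (6 of 6 tested) summed to 226 to 234 RPKM in F1, 237 to 251 in 129 and 176 to 205 in B6. Elovl3 was the largest part of this sum, with means of 103 RPKM in F1, 142 in 129 and 125 in B6. The sum hides members that differed in opposite directions, as 2 of the 6 rose and 2 fell in 129 against B6, beside 15.9% and 21.7% of all genes. Genes of progenitors and fibroblasts (12 of 13 tested) summed to 2824 to 3179 RPKM in F1, 4144 to 4407 in 129 and 2897 to 3198 in B6. That sum overlapped between F1 and B6. Without Col1a1, a collagen gene left out after its values were seen, it was 1920 to 2121 RPKM in F1, 3050 to 3282 in 129 and 2203 to 2430 in B6. F1 was then below both parents, but this separation rests on the choice of the gene left out. In F1 against B6, 1 of the 12 (Col1a1) rose and 5 fell, beside 11.0% and 20.2% of all genes. The fallers included Cd34 (-0.51, SE 0.04) and Icam1 (-1.15, SE 0.09). Of the 12, 10 fell in F1 against mid-parent, where 14.8% of all genes fell, and 2 did not pass, with Cd34 at -0.75 (SE 0.04) and Pdgfra, the receptor of fibroblast-like precursors, at -0.51 (SE 0.07). In 129 against B6, 7 rose and 2 fell, beside 15.9% and 21.7% of all genes, and the risers included the proteoglycan genes Lum (3.11-fold) and Dcn (2.01-fold). The 2 fallers were Icam1 (0.444 of B6) and Dlk1 (0.567 of B6), so genes of this list differed in opposite directions. The progenitor marker Dpp4 was at 0.119 RPKM or less in every group mean.

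Smooth muscle and myofibroblast genes (8 of 9 tested) summed to 107 to 114 RPKM in F1, 135 to 144 in 129 and 138 to 153 in B6, and Acta2 and Tagln made up most of it. Against mid-parent 6 of the 8 fell in F1, where 14.8% of all genes did. In 129 against B6, 6 of the 8 also fell, where 21.7% of all genes did. Cnn1, a smooth muscle calponin, averaged 1.33 RPKM in F1, 1.81 in 129 and 3.52 in B6, and Myh11, smooth muscle myosin, 1.41 in F1, 1.56 in 129 and 3.75 in B6. Both fell in F1 and in 129 against B6 and did not pass in F1 against 129 (adjusted p = 0.0625 and 0.576). Other genes of the list differed from this. Acta2 (-0.33) and Tagln (-0.38) fell in F1 against 129, and neither passed in 129 against B6 (-0.08 and 0.11). Lmod1 rose in F1 against 129 (0.28). In that contrast 1 of the 8 rose and 2 fell, beside 12% and 15.7% of all genes. Macrophage genes (6 of 6 tested) summed to 35.9 to 52.5 RPKM in F1, 19.4 to 43.8 in 129 and 40.9 to 51.4 in B6. Endothelial genes (2 of 5 tested) summed to 4.09 to 4.42 RPKM in F1, 2.80 to 3.56 in 129 and 5.36 to 6.55 in B6. Mesothelial genes (1 of 5 tested, Krt19) summed to 15.6 to 18.3 RPKM in F1, 15.8 to 18.1 in 129 and 7.92 to 9.10 in B6, and cartilage and tendon genes (2 of 6 tested) to 8.66 to 9.95 in F1, 8.97 to 10.7 in 129 and 17.9 to 18.9 in B6. The endothelial sum and the cartilage and tendon sum were highest in B6, and the mesothelial sum was lowest in B6. The mesothelial sum was nearly all Krt19. Comp carried the cartilage and tendon difference, with means of 4.63 RPKM in F1, 5.04 in 129 and 13.7 in B6. Sox9 averaged 3.82, 3.31 and 3.81 in the same order, and Tnmd, at 0.480, 1.13 and 0.622, was highest in 129. The macrophage sum of B6 overlapped with those of F1 and 129. Of the defining markers Myocd, Cdh5, Kdr, Emcn, Msln, Upk3b, Wt1, Lrrn4, Acan, Col2a1 and Scx were all below 1 RPKM in every group mean. The part of any of these cell types in the elastic fibre differences was not tested.

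**Figure D4:**
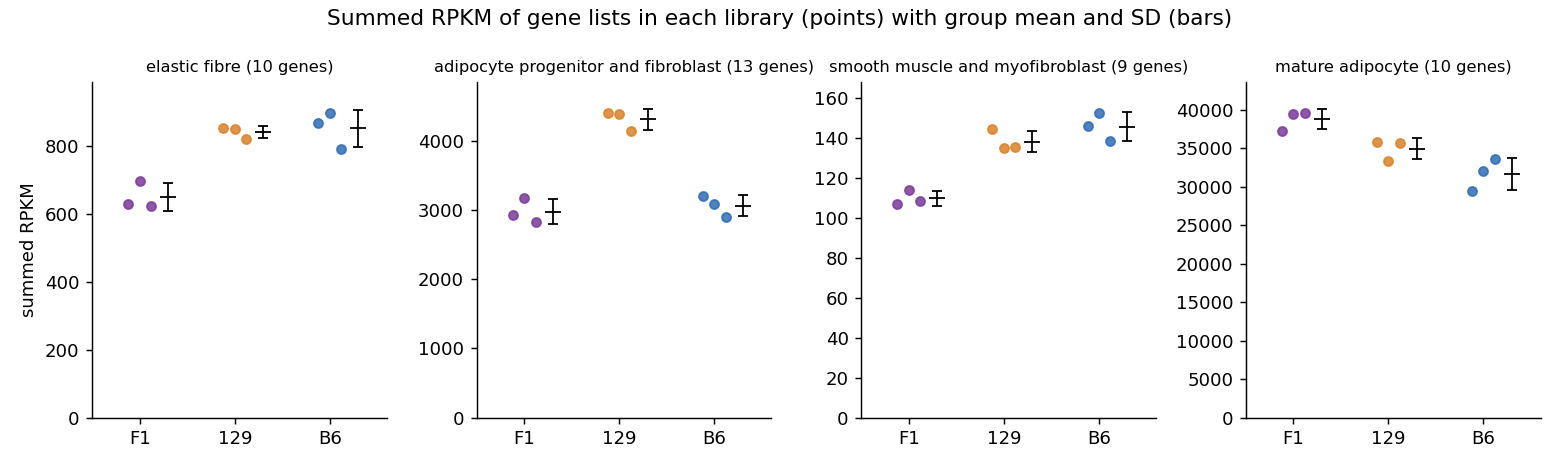
Summed RPKM of the 10 elastic fibre genes and of markers of progenitors and fibroblasts, smooth muscle and mature adipocytes (vertical axes, each starting at 0) in F1, 129 and B6 (horizontal axes); points are libraries and bars give the mean and SD of 3. The elastic fibre sum is lowest in F1 at 625 to 698, the progenitor sum is highest in 129 at 4144 to 4407, and the adipocyte sum, of which Fabp4 makes up 72.3% to 81.4%, is highest in F1 (without Fabp4 it overlaps between F1 and B6).

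Likeness of profile was measured as the root mean square difference between log2(RPKM + 1) profiles centred over the 9 libraries. Genes were picked by this likeness, so a shared order of group means follows from the choice. Closest to Eln were Tead2 (0.05), Mmp2 (0.07), Tgfbi (0.08), Osr2 (0.08) and Tnxb (0.09), which all had their lowest mean in F1 and their highest in 129. Mean RPKM was 2.78 in F1, 5.27 in 129 and 4.37 in B6 for Tead2, a transcription factor of the Hippo pathway, and 4.20, 6.96 and 6.22 in the same order for Tnxb, the matrix protein tenascin-X. Closest to Efemp1, the member with the widest range, were Abat (0.09), Cd80 (0.10), Dhcr7 (0.11) and Dkk3 (0.12), all lowest in F1 and highest in B6. Another row carried a spreadsheet date in place of its symbol and is not named.

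Within 250 kb of the 10 members, 60 tested neighbours were counted, of which 11 (18.3%) were higher and 6 (10%) lower in 129 than in B6, beside 15.9% and 21.7% of all genes. Limk1, a kinase gene beside Eln, rose in 129 (30.3 beside 19.2 RPKM in B6, log2 difference 0.64, SE 0.10, adjusted p = 4.84e-04), and Fam118a beside Fbln1 rose as well (0.34, SE 0.05, adjusted p = 4.78e-04). Hdac11 rose (0.27, adjusted p = 0.00898) beside Fbln2, which was lower in 129. B9d1 rose (0.59, adjusted p = 0.0127) beside Mfap4, and 4930481A15Rik was lower (-0.62, adjusted p = 2.41e-04) beside Efemp2, both members that did not pass. The B9d1 call was lost without 129 replicate 1 (adjusted p = 0.0533), and its difference was 0.38 without B6 replicate 2. M6pr rose (0.17, adjusted p = 0.0123) beside Mfap5, which also rose, a call lost without B6 replicate 1 (adjusted p = 0.051). The single tested neighbour of Fbn2 and the 3 of Fbln5, the members with the largest parental differences, did not pass, nor did the 2 of Efemp1.

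Leaving out a library moved the count against mid-parent most. Of the 10 members, 5 fell without F1 replicate 1 and 5 without F1 replicate 3, against 8 with all libraries, and these 5 always included Eln, Fbn1, Fbln1, Fbln5 and Efemp1. After median-of-ratios rescaling the split over all genes was 1735 higher and 1753 lower in F1 against B6, where the deposited scale gave 1270 and 2329, and 1298 higher and 1348 lower against mid-parent, where the deposited scale gave 964 and 1712. Of the members, 1 rose and 6 fell against B6 and 7 fell against mid-parent on that scale.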

How the data were processed

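Poly(A) RNA of 9 samples was sequenced from stranded libraries, per the labels. The deposited values are RPKM made by the authors, with STAR and build mm9 per the submitters' processing notes. For the counter, the annotation and all versions, nothing is given in the sources used here. RPKM times exon length summed to 1000000 in each library over 24015 rows, so the denominator was reads assigned to genes, and with a tolerance of 0.1 read 100% of non-zero rows gave whole reads. Build mm9 is a C57BL/6J assembly, and any loss of reads from 129 alleles was not measured.

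Genes reaching RPKM 1 in 3 or more libraries were analysed as log2(RPKM + 1), which understates changes of low genes. limma 3.58.1 under R 4.3.3 was fitted to all 9 libraries with 1 mean per group and a variance trend, Benjamini-Hochberg adjustment over 11542 genes, and a threshold of 0.05. Errors of log2 differences are standard errors. The fit was tested on simulated data. Alternatives were a pseudocount of 0.1, no filter, a filter of RPKM 5, median-of-ratios rescaling, voom on recovered reads, a replicate block and each library left out. Pathway genes named are the up to 4 per list with the smallest p in 129 minus B6, of which 1 is not reported here. The members and lists were chosen with earlier results of these data known.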

Additional observations from a re-analysis of the deposited data

How the results depend on the processing

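Over 15 alternatives each, the 40 member differences gave 600 values, none of which changed direction. Of these, 541 stayed on the same side of the threshold, 50 lost a call and 9 gained one. The count of members called against mid-parent ranged from 5 to 9 when 1 library was left out, and the cause was not tested. Differences near 0 changed sign in a few cases. Ltbp1 in 129 against B6 ranged from -0.0104 to 0.0785 with 1 library left out. The log2 ratio of Eln to Fbn1 in 129 against B6 ranged from -0.0287 to 0.150, and that of Fbln1 to Fbln2 in F1 against B6 from -0.0691 to 0.134. Deviations of same-numbered libraries of different groups from their group means gave 4 of 9 correlations over 0.1 (-0.19 to 0.22). With 3 libraries per group these values cannot decide whether the numbers pair the samples. With the replicate block 9 members were called in F1 against B6 and 8 in F1 against 129, where Efemp2 (-0.17, adjusted p = 0.0368) and Fbln2 (-0.19, adjusted p = 0.0468) passed in addition. Under the block Loxl3 in 129 against B6 (adjusted p = 0.00784) and Lox against mid-parent (adjusted p = 0.0495) also passed, and Loxl1 (0.0618) and Itgb1 (0.0672) in 129 against B6 did not. Read depth limits Mfap4 and Eln most, with 237 to 494 and 482 to 955 reads.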
